A study of Homo sapiens with 15 samples.

Results

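Internal transcribed spacer 1 (ITS1) is the transcribed stretch of the human ribosomal DNA unit that separates the 18S gene from the 5.8S gene. The cytosines described here were every cytosine from position 5528 to position 6622 that had at least 10 C or T reads in at least 2 libraries of each of the 4 groups. The choice used read counts and no methylation value. It gave 416 cytosines, of 3505 listed in any library and 2476 that pass the same read rule over the whole unit. Of the 416, 180 lie in CG context (CpGs, the methylation readout), 83 in CHG and 153 in CHH context, where H is any base but G. Positions are those of the deposited files, which number the bases of 1 contig, a GenBank sequence of 1 human ribosomal repeat. They are not chromosome coordinates, because the repeat is present in many copies on several chromosomes. The closest CpG left out, at position 6538, had 2 reads in the second deepest library of its weakest group. The closest CHG cytosines left out, at 6279, 6366 and 6293, had 9, 8 and 8. The shallowest cytosines kept, at 5675 and 5676, had 10.

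Ribosomal DNA is transcribed by RNA polymerase I as 1 long precursor that carries the 18S, 5.8S and 28S rRNAs. ITS1 is cut out of that precursor while the small and large ribosomal subunits mature apart, and it is then degraded, so it is part of no ribosome. CpG methylation of the repeat is best known from the promoter and the spacer upstream of it, where methylated copies are generally silent. Bisulfite turns unmethylated cytosine into uracil, which sequences as T, while methylated cytosine is protected and still sequences as C. Methylation outside CpGs is scarce in human cells of this kind, so C reads at CHG and CHH cytosines serve as the local control of how completely the DNA was converted. Sequence that is rich in G and C and folds on itself is known to convert poorly when it is not fully denatured.

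The DNA came from 1 human lymphoblastoid cell line, that is B cells immortalised in culture, and was read by bisulfite amplicon sequencing with a panel of primers pooled for each sample. The 6 control libraries came from unexposed cells. The 3 exposed groups, with 3 libraries each, came from the same line treated with 5 µM hexavalent chromium for 24 h and taken at day 3, day 7 or day 14 after exposure began. The study measured the line before exposure and at these 3 times. No label gives a matched unexposed culture for each day, so time in culture and exposure cannot be told apart. Unconverted reads and depth also differed between the earlier and the later libraries, as given below. Differences in the handling of the libraries therefore cannot be told apart from day and exposure either. The controls form 2 sets of replicates 1 to 3 by their titles, called the first and the second set. The protocol speaks of 2 biological replicates, and no label ties a library to a culture of its own, so all p-values measure the spread between libraries, which may be technical. In bulk DNA a level of methylation mixes the share of cells with the share of repeat copies methylated in each, and those shares cannot be told apart.

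Libraries held 28716783 to 95852393 C or T calls, of which 3.57% to 8.79% fell in the spacer. No pair of libraries of 1 group had the same spread of reads over the tested CpGs of the unit within sampling noise (lowest chi-square per degree of freedom 528 over 24 pairs). This value compares depth and not methylation. The shallowest library in the spacer was day 7 replicate 3, with a median of 118.5 reads over the tested CpGs. The deepest was replicate 1 of the first control set, with 2014.5. Reads came from PCR products without molecular identifiers, so they are not independent molecules.

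Depth along the spacer changed in sharp steps that all groups shared. The first spacer CpG, at 5529, had a control median of 103636.5 reads, and the CpG at 5574 still had 45897. The next CpG, 10 bases on at 5584, had 859. From there the depth sank to 94 reads at 5667, rose to 21000 at 5768, dropped to 1007.5 at 5871 and climbed again to 18450 at 6141. The stretch from 6169 to 6508 was thin again. The CpG at 6587, near the far end, had 91354. In the thin stretch the later groups were shallower than the controls: over the 29 CpGs from 6299 to 6447 the median was 388 reads in controls, 238 at day 3, 73 at day 7 and 26 at day 14.

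In unexposed cells the spacer was neither uniformly methylated nor free of methylation. Its mean over the 168 CpGs with 10 reads in every library was 57.7% ± 3.58 (SD, n = 6), with a lowest library at 52.8%, a median of 58.9% and a highest at 61.3%. Single CpGs ranged from 17.2% at 6508 to 97.7% at 5667. Of the 168, 152 lay between 20% and 80%, 14 above 80% and 2 below 20%. Replicate spread was moderate, with a median SD over sites of 5.14 percentage points.

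The control profile had 3 high places and 3 low ones. The 6 CpGs from 5561 to 5574, within the first 47 bases of the spacer, rose from 88.0% ± 0.752 to 96.7% ± 0.368, and the window from 5628 to 5727 averaged 84.4% ± 1.92. A broader crest lay in the window from 5928 to 6027, at 71.7% ± 4.33. Between them the windows from 5728 and 5828 averaged 46.1% ± 7.17 and 48.8% ± 5.26. The lowest window ran from 6428 to 6527, at 35.6% ± 5.90, and ended in the trough at 6508. Past a CpG-free gap of 39 bases the last window, from 6528 to the 5.8S border, was back at 62.1% ± 1.39. CpGs were dense throughout, with a median gap of 4 bases, and the longest gap without a measured CpG spanned 97 bases from 5671 to 5768.

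**Figure D1:**
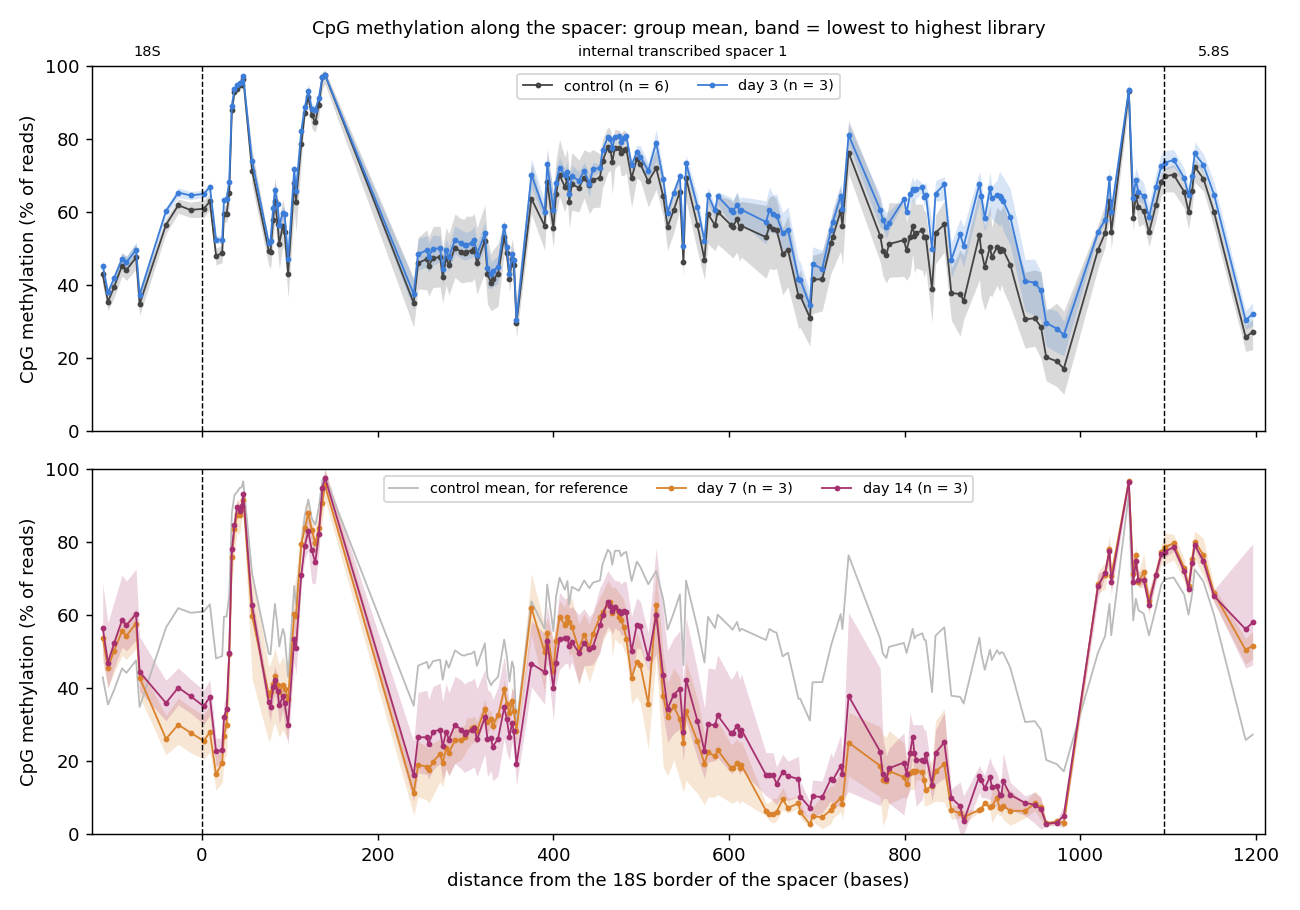
CpG methylation (percent of C or T reads) of each tested CpG against its distance in bases from the 18S border, group mean with a band from the lowest to the highest library: controls and day 3 above, day 7 and day 14 below with the control mean in grey. Day 3 followed the control profile, while at days 7 and 14 the middle and the 3′ part fell away and the last CpGs before 5.8S lay above the control mean.

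The CHG and CHH cytosines of the spacer kept C reads in every library, unevenly along the spacer and more of them at the later days. They are called unconverted reads here. Over all reads at these cytosines the unconverted share was 3.78% to 7.19% in the controls (mean 5.53% ± 1.35, SD, n = 6). It was 4.86%, 7.53% and 6.33% in the day 3 libraries. At day 7 it was 18.8%, 22.2% and 12.9%, and at day 14 it was 14.4%, 13.9% and 16.1%. All 6 later libraries lay above all 9 earlier ones. In the rest of the unit the share was 0.531% to 1.20% in controls and 5.02% to 7.77% in the day 7 and day 14 libraries, so the spacer carried more unconverted reads than the remainder in every library. CHG cytosines were higher than CHH cytosines, at 9.83% ± 1.70 against 3.41% ± 1.01 in controls and 26.3% ± 6.90 against 15.5% ± 3.23 at day 7.

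Of the 210 CHG and CHH cytosines tested, 131 had a higher unconverted share at day 7 than in controls and 1 a lower one (edgeR quasi-likelihood test, Benjamini-Hochberg adjusted p below 0.05 over the unit). Over all 1182 such cytosines of the unit the shares called were 60.5% higher and 1.44% lower. At day 14 it was 122 higher and 0 lower, against 45.9% and 1.95% of the unit, and without day 14 replicate 3 the count was 65. The spacer therefore stood near the unit in this respect at day 7. No spacer cytosine was called at day 3 by edgeR, where 0 had an unadjusted p below 0.05 and the unit had 0.0846% called lower and 0.0% higher.

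Within the spacer the unconverted reads of controls were concentrated in the 5′ part. The rises of the later days lay in the 5′ part and at the 3′ end. In controls, 3 stretches held every cytosine above 20%: positions 5563 to 5581, 5639 to 5676 and 5933 to 6009. In the first, the CHH cytosine at 5581 had 55.4% ± 10.9 unconverted reads in controls, 95.7% ± 2.35 at day 7 and 94.3% ± 1.36 at day 14. Only 2 bases on, past the drop in depth, the CHG at 5583 had 5.91% ± 2.48, 52.9% ± 14.8 and 44.2% ± 3.73. These stretches lie on or next to the 3 high places of the CpG profile, and the drop in unconverted reads after 5581 coincides with the fall in depth between 5574 and 5584. By contrast, in the 4 windows from 6128 to 6527, 0 of 13, 0 of 20, 0 of 15 and 0 of 25 cytosines were called higher by edgeR at either later day. In the window from 6428 to 6527 the share was 0.496% in controls, 0.845% at day 3, 0.171% at day 7 and 0.360% at day 14.

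**Figure D2:**
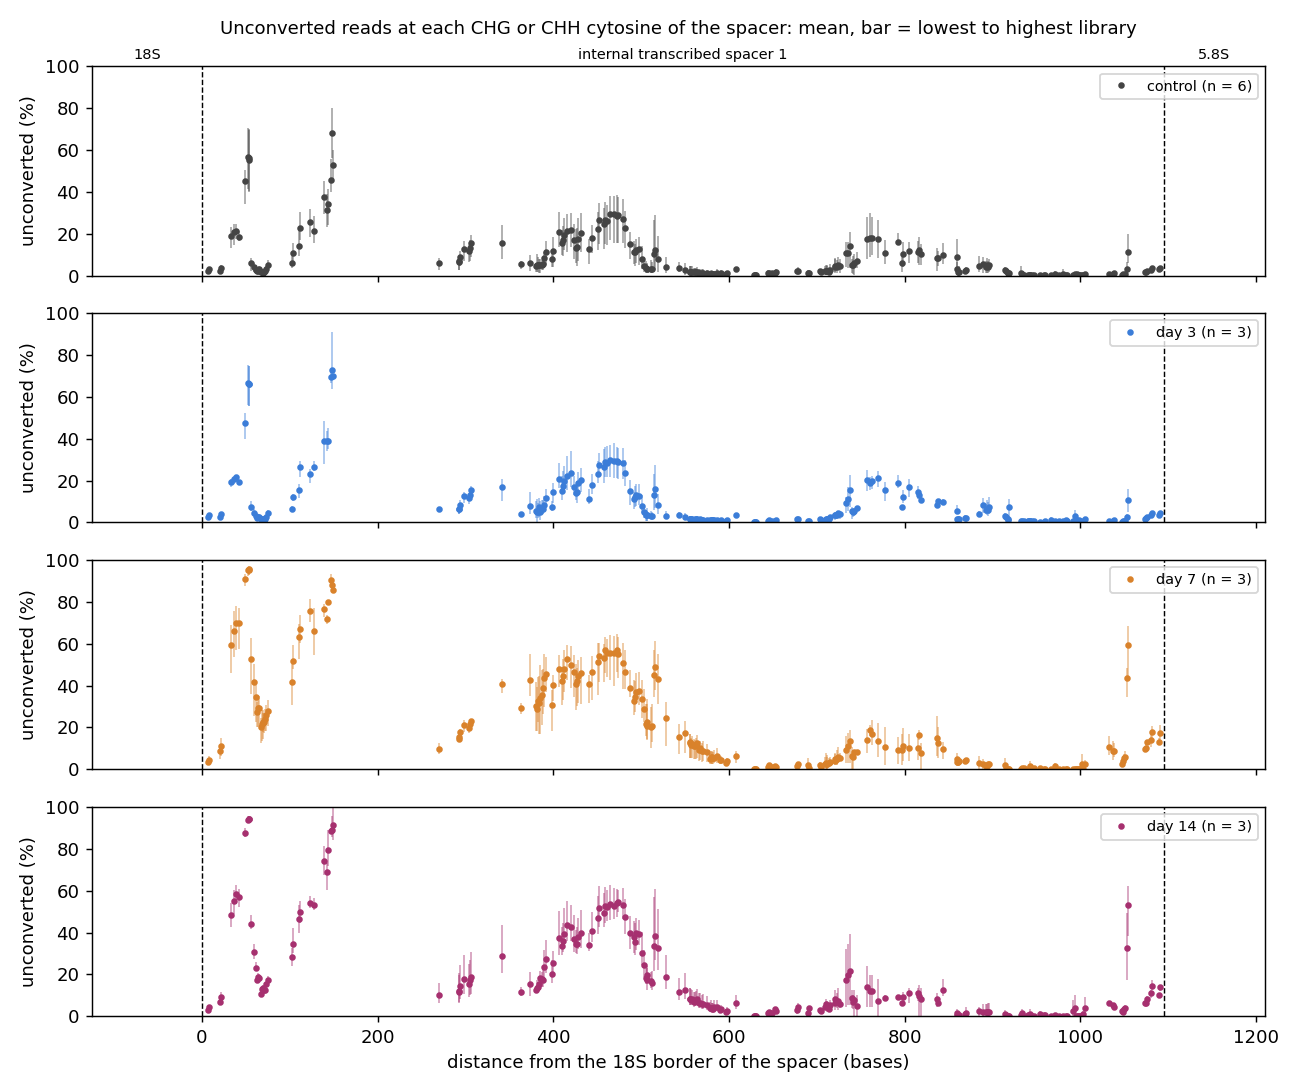
Unconverted reads (percent) at each CHG or CHH cytosine of the spacer against its distance from the 18S border, group mean with a bar from the lowest to the highest library, 1 panel per group. The 3 stretches above 20% in controls rose further at day 7 and day 14, while the stretch from about base 600 to base 1000 of the spacer had no cytosine above 21.5% in any group mean.

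At day 3 the spacer resembled the controls in its profile, at a somewhat higher level. Its mean was 64.0%, 62.8% and 61.2% in the 3 libraries (62.7% ± 1.44, SD, n = 3). The lowest of them lay within the control range and the others above the highest control, at 61.3%. The site differences leaned upward: 167 of 168 CpGs had a higher mean than in controls, by a median of 3.94 percentage points against 2.31 over all CpGs tested. None passed the test by edgeR (0.0% of the unit in either direction, with 26 spacer CpGs at an unadjusted p below 0.05), and no window passed by limma. The 3 CpGs with the lowest p lay together towards the 3′ end, at 6414, 6424 and 6435. At 6424 controls ranged from 37.4% to 61.7% with a median of 50.2%, and the day 3 libraries had 71.2%, 68.8% and 59.7%. Day 3 replicate 3 overlapped with the controls, and the difference of 16.0 points had an edgeR adjusted p of 0.929. In the window around it, from 6328 to 6427, the day 3 libraries were at 64.7%, 62.8% and 58.1% and the controls at 40.6% to 57.3%. The groups did not overlap there, but the difference of 12.6 points did not pass (limma adjusted p = 0.574), and the window from 6428, 11.6 points higher, did not either (0.626). Nor did the groups overlap in the window from 6028 to 6127 (63.7% to 65.5%, highest control 63.6%). The same held from 6528 to the 5.8S border (64.9% to 69.0%, highest control 64.2%). It also held in the last window of 18S (62.2% to 64.6%, highest control 61.5%).

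At day 7 most of the spacer was less methylated than in controls. The spacer mean was 35.7%, 38.2% and 34.3% (36.1% ± 2.00, SD, n = 3), below every control and every day 3 library. Of the 168 tested CpGs 129 were called lower and 12 higher than in controls by edgeR, where 41.8% of the unit was called lower and 22.3% higher. The median difference over the spacer was −22.4 points, against −5.30 over the 851 CpGs of the unit. CpGs below 20% methylation rose from 2 in controls to 64.

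Day 14 showed much the same picture with more spread between libraries. Spacer means were 32.1%, 36.6% and 45.3% (38.01% ± 6.71, SD, n = 3), all below the lowest control at 52.8%. Replicate 3 had the spacer mean nearest the controls, and the highest methylation of the 3 day 14 libraries at 139 of 168 CpGs. It also had the highest unconverted share of the 3, at 16.1%. It was not the least changed everywhere: over the 10 CpGs of 5.8S nearest the border it was farthest from the control mean of 58.7%, at 74.7%. By edgeR 152 CpGs were called lower and 12 higher, where 46.1% of the unit was lower and 24.9% higher. The 127 CpGs called lower on both days were 98.4% of those of day 7 and 83.6% of those of day 14. All 12 higher calls were at the same CpGs, and 0 CpGs were called in opposite directions. Both days were compared with the same 6 controls.

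These means give every CpG the same weight. When the reads were summed over the CpGs instead, so that the deeply read first and last bases of the spacer dominate, the means were 61.1% in controls, 63.6% at day 3, 53.7% at day 7 and 52.9% at day 14. In that form day 7 replicate 3, at 59.4%, lay inside the control range of 58.7% to 63.0%. The local unconverted share was also removed at each CpG: it was subtracted, and the rest was divided by the converted share. The means were then 55.1%, 60.1%, 25.6% and 29.8%, and 154 CpGs were called lower at day 7. The share of the unit called in that run is not given here.

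**Figure D3:**
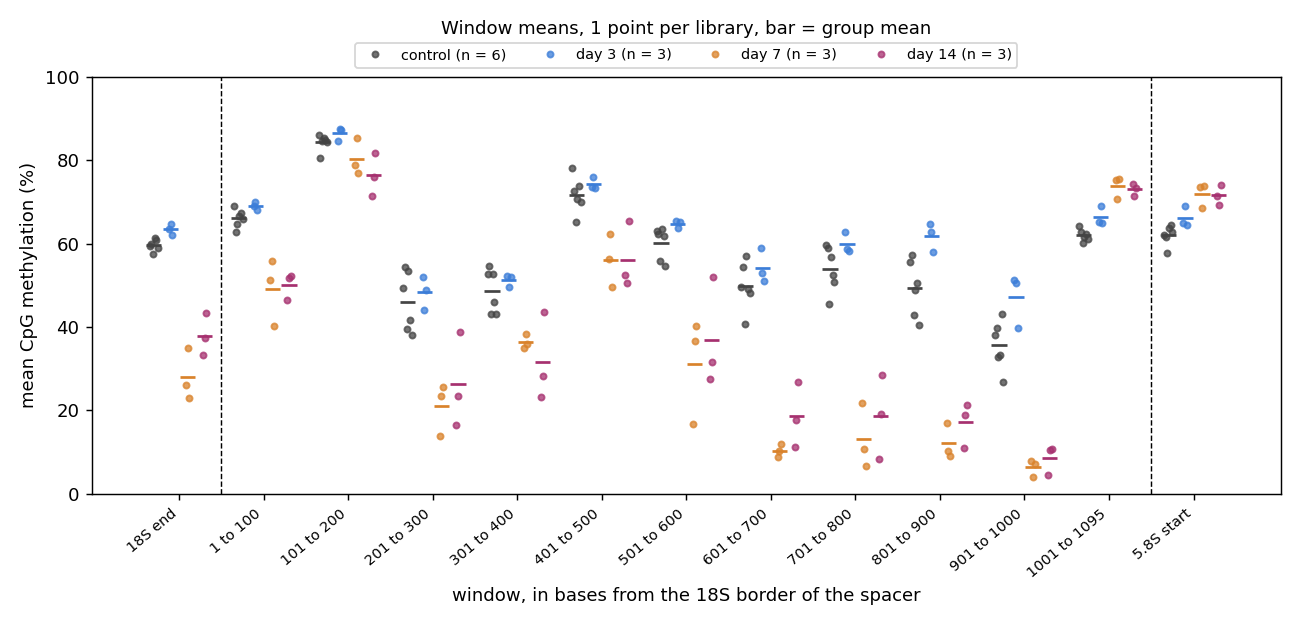
Mean CpG methylation (percent) of the 100-base windows of the spacer and of the windows that touch it in 18S and 5.8S, 1 point per library and a bar for the group mean. In the 4 windows from base 601 to base 1000 no day 7 or day 14 library reached the lowest control, while in the last window of the spacer all 6 later libraries lay above all 6 controls.

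The deepest falls were towards the 3′ end, between 6128 and 6527. The window from 6128 to 6227 went from 49.9% ± 5.63 in controls to 10.4% ± 1.52 at day 7 and 18.6% ± 7.85 at day 14. The next window fell from 54.0% ± 5.44 to 13.1% ± 7.87 and 18.6% ± 10.02, and the one from 6328 to 6427 from 49.3% ± 6.66 to 12.1% ± 4.32 and 17.1% ± 5.43. In the window from 6428 to 6527 the level reached 6.397% ± 2.05 at day 7 and 8.61% ± 3.52 at day 14. All 4 windows were called lower on both days by limma, with adjusted p from 5.57e-08 to 4.05e-06 at day 7 and from 3.95e-06 to 5.93e-05 at day 14. Over all 81 windows of the unit 38.3% were called lower and 27.2% higher at day 7, and 40.7% and 30.9% at day 14. Of the 11 spacer windows, 9 were called lower and 1 higher at day 7, and 10 and 1 at day 14. The unconverted share of these 4 windows was 0.496% to 5.97% in controls, 0.171% to 5.93% at day 7 and 0.360% to 6.98% at day 14.

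The single CpGs with the largest falls lay in the same windows. The CpG at 6263 ranged from 70.6% to 85.2% in controls with a median of 75.8%, and was at 33.3%, 26.0% and 16.0% at day 7. It fell by 51.3 points (log2 ratio −3.23 ± 0.47 SE, edgeR adjusted p = 2.18e-05). At day 14 its libraries were at 11.7%, 41.2% and 60.7%, the widest spread of any spacer CpG, and the last of these rested on 28 reads. The CpG at 6173 ranged from 44.6% to 64.2% in controls, with a median of 57.8%. Day 7 libraries had 8.62%, 3.70% and 4.65%, and day 14 libraries 9.88%, 16.7% and 22.3%, with no overlap with the controls on either day. Its fall at day 7 was 50.6 points (log2 ratio −4.50 ± 0.37 SE, edgeR adjusted p = 5.00e-08).

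Farther along, the CpG at 6412 ranged from 41.5% to 66.4% in controls and was at 7.14%, 6.67% and 6.12% at day 7. At day 14 it stood at 11.5%, 18.8% and 17.6%, the last on 17 reads. Its later libraries were all below its lowest control. The trough at 6508 ranged from 10.2% to 32.9% in controls and was at 3.26%, 2.05% and 4.05% at day 7, a fall of 14.1 points from a low start (edgeR adjusted p = 0.00022). The other named falls of day 7, at 6177 and 6254, were 49.99 and 50.4 points. Those of day 14 were 41.6 points at 6254, 41.4 at 6181, 39.9 at 6173, 39.8 at 6256 and 39.1 at 6437.

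A set of 45 tested CpGs, from 6111 to 6475, had under 10% unconverted reads at the CHG and CHH cytosines within 100 bases in every library. Their mean was 43.1% to 55.7% in the controls and 61.4%, 57.8% and 53.9% at day 3. It was 13.0%, 9.49% and 9.83% at day 7 and 9.60%, 17.5% and 23.5% at day 14. All 45 were called lower by edgeR on both days, and 0 higher. Of the 452 CpGs of the unit that meet the same limit 41.4% were lower and 21.7% higher at day 7, and 44.0% and 25.9% at day 14. No CpG of the spacer met a limit of 2%. That share sums the reads within 100 bases, so near a step in depth the deeper side weighs most. At day 7 the CpGs of the window from 6428 to 6527 had a median local share of 5.12%. The share within the window itself was 0.171%. Thinning every library at each CpG to the depth of the shallowest left 123 of 168 CpGs of the whole spacer called lower at day 7 and 131 at day 14. The share of the unit called after thinning is not given here. The part of falling depth in the values of single CpGs was not tested.

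In the 5′ part the falls were smaller and uneven before any removal of unconverted reads. With the local unconverted share removed, the day 7 differences of the windows from 5528 to 6127 ran from −34.9 to −22.0 points. Those of the windows from 6128 to 6527 ran from −42.9 to −30.9, so the 2 ranges overlapped. The first 6 CpGs of the spacer, from 5529 to 5555, fell as a block. At 5529 controls ranged from 58.6% to 63.3% with a median of 61.3%, and day 7 libraries were at 23.4%, 32.6% and 20.6%. It fell by 35.5 points at day 7 (edgeR adjusted p = 1.18e-07) and by 25.9 at day 14 (4.76e-06). Beyond them the highly methylated CpGs from 5561 to 5574 moved less in points: 5561 fell by 12.1 at day 7, and at 5574 the mean went from 96.7% ± 0.368 to 91.7% ± 2.76 and 93.1% ± 1.03, differences of −4.99 and −3.53 points that were called on both days.

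The window from 5628 to 5727 was the 1 spacer window not called at day 7. It averaged 84.4% ± 1.92 in controls, 80.4% ± 4.39 at day 7 (limma adjusted p = 0.0567) and 76.4% ± 5.15 at day 14 (0.0274). Groups overlapped on both days, and the day 14 call was lost without day 14 replicate 1 (0.176) or replicate 2 (0.083). Without replicate 2 of the first control set, or without day 7 replicate 2, the window was called lower at day 7 (limma adjusted p = 0.0295 and 0.0157). Its unconverted share was 17.0% in controls, 61.2% at day 7 and 47.0% at day 14. With the local unconverted share removed at each CpG and the rest rescaled, the window was at 81.8% in controls, 53.4% at day 7 and 57.2% at day 14. In that form it was called lower at day 7 (limma adjusted p = 7.87e-06).

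Downstream, the windows from 5728, 5828, 5928 and 6028 fell by 25.1, 12.3, 15.7 and 29.0 points at day 7 and by 19.8, 17.1, 15.6 and 23.2 at day 14. Limma called all 4 lower on both days, and the window from 5828 lost its day 7 call without day 7 replicate 1 (adjusted p = 0.0606). Here day 14 replicate 3 overlapped with controls in the first 3. At 38.8%, 43.6% and 65.4%, it was inside the control ranges of windows 5728, 5828 and 5928. Its unconverted share there was 22.0%, 27.5% and 52.4%, in each the highest of the day 14 libraries. With the local unconverted share removed, the highest day 14 library was at 19.3%, 24.1% and 47.7% in these windows. The lowest control was then at 33.9%, 38.8% and 63.3%.

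The 27 CpGs without a call at day 7 all lay between 5584 and 6044. Their median difference from control was −8.69 points, beside a median rise of 20.5 points in the local unconverted share. For the 129 called lower those medians were −27.7 and 6.88 points. Across the 168 CpGs the difference at day 7 and the rise in local unconverted share had a Pearson r of 0.552 and a Spearman rho of 0.800. With the log2 ratio of reads at day 7 to reads in controls, r was 0.684 and rho 0.556. Neighbouring CpGs share reads, libraries and base composition, so these values describe the profile and have no p.

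**Figure D4:**
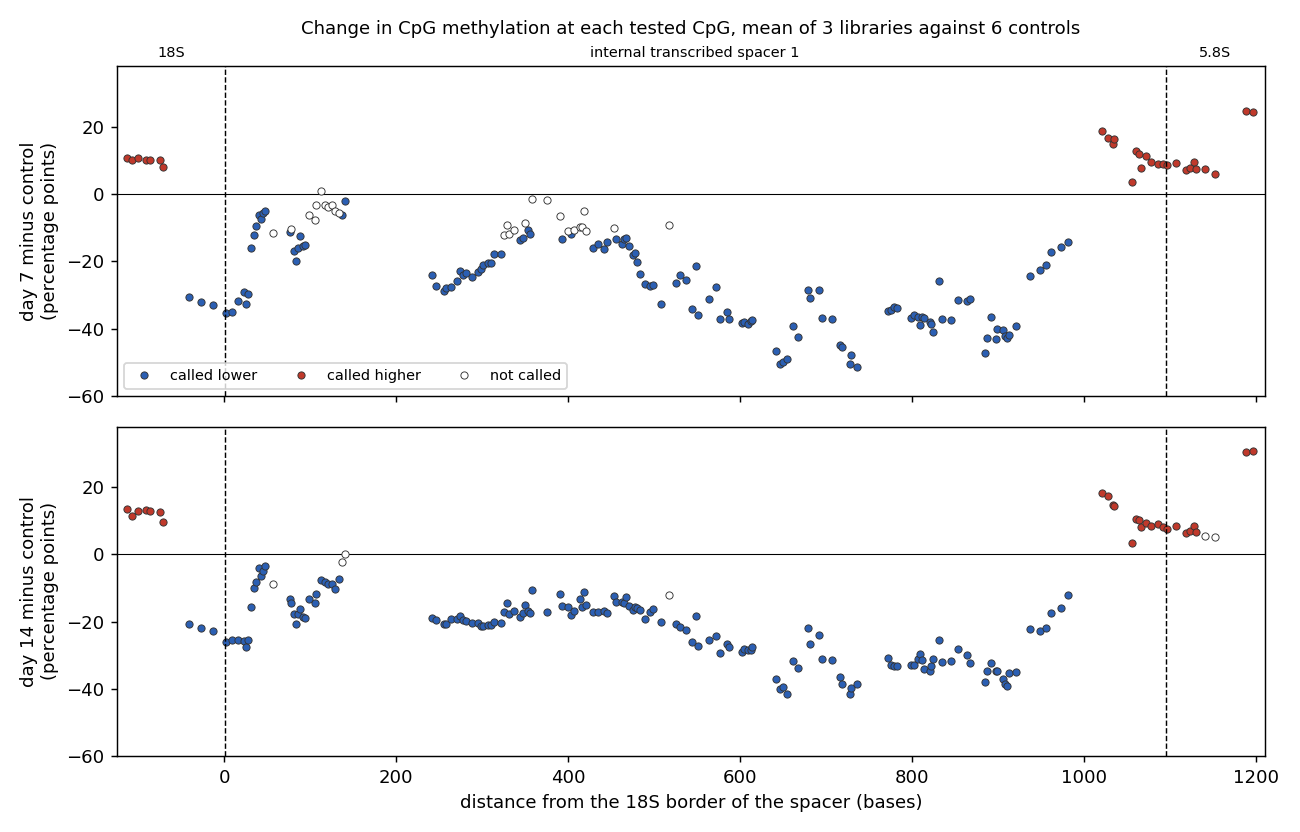
Difference in CpG methylation from control (percentage points) at each tested CpG against its distance from the 18S border, at day 7 above and day 14 below. Blue points were called lower, red higher and white not called by edgeR. The change of sign lies 42 to 72 bases before the spacer on the 18S side and 76 bases or more before 5.8S on the other.

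The last window of the spacer went the other way. From 6528 to the 5.8S border the mean was 60.2% to 64.2% in controls, 65.3%, 69.0% and 64.9% at day 3, 75.3%, 70.8% and 75.5% at day 7 and 74.4%, 71.5% and 73.3% at day 14. It rose by 11.8 points at day 7 and 10.99 at day 14 (limma adjusted p = 0.000162 and 0.000332), with no overlap with the controls. All 12 tested CpGs from 6547 to 6619 were called higher on both days, by 3.63 to 18.6 points at day 7.

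The largest rise was at 6547, the first CpG past the gap, with 6555 next at 16.7 points on day 7 and 17.4 on day 14. At 6547 the 3 libraries of the first control set had 56.7%, 54.2% and 53.3% and those of the second set 44.7%, 44.9% and 45.1%. Day 7 libraries were at 71.9%, 66.0% and 67.4%, and day 14 libraries at 67.9%, 64.7% and 71.3%, all above both control sets. The rise was 18.6 points at day 7 (log2 ratio 1.13 ± 0.22 SE, edgeR adjusted p = 0.000334).

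Unconverted reads rose in this window as well, from 2.67% in controls to 14.2% at day 7 and 10.4% at day 14, and at the CHG cytosine 6581 from 11.2% ± 5.09 to 59.4% ± 12.8 and 53.0% ± 12.7. With the local unconverted share removed, the window was still called higher, by 9.48 points at day 7 and 9.46 at day 14 (limma adjusted p = 0.000639 and 0.000749). With only the second control set 9 of the 12 CpGs were called at day 7 and 7 at day 14. The day 7 calls lost included 6605 (edgeR adjusted p = 0.0685 at day 7) and 6613 (0.0525).

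At the border with 18S, the first CpGs of the spacer belonged with the last of the gene. The last 3 tested CpGs of 18S, at 5486, 5500 and 5514, averaged 59.7% ± 1.40 in controls, 63.5% ± 1.25 at day 3, 27.98% ± 6.21 at day 7 and 37.97% ± 5.12 at day 14. At 5514 controls ranged from 58.6% to 62.8% and day 7 libraries were at 26.4%, 34.8% and 22.3%, close to the values at 5529 across the border. All 3 were called lower on both days, with edgeR adjusted p from 2.34e-07 to 4.42e-07 at day 7. The next CpG inward, at 5456, was higher, by 8.04 points at day 7 and 9.58 at day 14, as were 57 of the 83 tested CpGs of 18S at day 7 and 60 at day 14. The change of direction thus lay between 5456 and 5486, within the gene. Depth changed there too, from 150857 reads at 5456 to 103651.5 at 5486 in the control median. The order of the groups in depth changed as well: the day 3 median rose from 68035 to 104069.

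The step at the border, taken as the mean of the 10 nearest CpGs in the spacer minus that of the 10 nearest in 18S, was 21.1 ± 1.69 points in controls and 21.4 ± 0.659 at day 3. It was −0.148 ± 2.26 at day 7 and −0.347 ± 5.32 at day 14. Controls ranged from 18.8 to 22.8 and no later library exceeded 3.28. The 10 CpGs on the 18S side moved by −2.52 points at day 7 and 2.10 at day 14, since they hold CpGs of both directions, and the 10 on the spacer side moved by −23.7 and −19.3. The size depends on the number of CpGs taken: with 5 on each side it was 3.76 points in controls and −13.6 at day 7.

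At the border with 5.8S no such change was seen. The last 3 CpGs of the spacer, at 6605, 6613 and 6619, rose by 9.53, 8.996 and 9.001 points at day 7, and the first 3 of 5.8S, at 6623, 6633 and 6645, by 8.80, 9.37 and 7.27. At 6619 controls ranged from 64.7% to 70.9%, and day 7 libraries were at 78.9%, 73.8% and 79.5%. At 6623 those values were 65.6% to 72.2% and 79.7%, 73.9% and 82.4%, with no overlap at either CpG. Against the second control set alone the day 14 rises at 6619 and 6623 were not called (edgeR adjusted p = 0.0536 and 0.1004). All 17 tested CpGs of 5.8S were called higher at day 7 by edgeR and 15 at day 14, and the first 5.8S window rose by 9.80 and 9.51 points. The step from the 10 nearest CpGs was 5.39 ± 1.25 points in controls, 5.55 ± 0.347 at day 3, 4.76 ± 0.606 at day 7 and 3.39 ± 3.96 at day 14. The day 14 libraries were at 6.11, 5.22 and −1.15, and without replicate 3 the mean was 5.66. With the 5 nearest on each side its sign turned in every group, to −4.99, −4.71, −4.22 and −3.94.

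The change of direction at this end lay inside the spacer, between 6508 and 6547, 76 bases or more before the gene. All lower calls of both days lay at or before 6508 and all higher calls from 6547 on. The gap between these CpGs is also a step in depth, from 732.5 to 2638.5 reads in controls and from 215 to 3034 at day 7. Read depth thus changed at both places where the direction changed. Whether the bases on each side belong to different PCR products is not given in the sources used here, and the part of depth in the change of direction was not tested.

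The contrast of day 7 with day 3 takes no control library as reference, but the controls are in the fit that estimates the spread. Against day 3 the day 7 spacer had 134 CpGs called lower and 8 higher by edgeR, where 42.1% of the unit was lower and 15% higher. The median difference was −25.7 points, against −7.32 over the unit. The largest falls, with at most 2 CpGs taken per window, were at 6412 (61.2 points), 6424 (59.2), 6435 (57.4), 6437 (56.8) and 6263 (56.1). At 6412 the day 3 libraries were at 71.2%, 69.4% and 62.9% and the day 7 libraries at 7.14%, 6.67% and 6.12%. Among windows limma called 10 lower and 1 higher, where 40.7% and 21.0% of the unit were called. The higher window was the last one of the spacer (adjusted p = 0.0119), and it was lost without day 7 replicate 1 (0.0529). Without that library 2 higher CpG calls were left in place of 8.

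Between day 7 and day 14 few spacer CpGs differed. By edgeR 0 were lower and 7 higher at day 14, where 4.7% of the unit was lower and 13.9% higher, and 23 of the 168 had an unadjusted p below 0.05. The 7 were 5529 and 6 CpGs of the window from 6128 to 6227. At 6173 the mean was 5.66% ± 2.61 at day 7 and 16.3% ± 6.24 at day 14, a rise of 10.6 points (edgeR adjusted p = 0.0149), and at 6177 the rise was 10.6 as well. At 5529 it was 9.52 points (0.0467). Limma called that 1 window higher at day 14 and none lower, by 8.28 points (adjusted p = 0.0226), where 16.0% and 4.94% of the unit's windows were called. Its day 7 libraries (8.89%, 10.3% and 11.9%) overlapped with those of day 14 (11.3%, 17.8% and 26.9%). Its call was lost without day 7 replicate 2 (limma adjusted p = 0.0615), day 14 replicate 2 (0.0576) or day 14 replicate 3 (0.109). None of the 7 was called when the fit held these 6 libraries only, and none without day 14 replicate 2.

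Of the 180 CpGs that define the spacer here, 12 were left out of the tests because some library had fewer than 10 reads: 5671, 9 CpGs from 6270 to 6297, and 6367 and 6369. Tested under the looser read rule that chose them, 11 of the 12 were called lower at both day 7 and day 14 and 0 higher. Of the 1022 CpGs of the unit under that rule 38.2% were lower and 21.1% higher at day 7, and 42.6% and 22.6% at day 14. All 180 spacer CpGs together gave 140 lower and 12 higher at day 7 and 162 and 12 at day 14. For the 12 left out of the main tests, the differences at day 7 ran from −37.6 to −6.36 points.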

How the data were processed

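The authors deposited, for each library, a table of cytosines with counts of C and T reads (N_C, N_T and their sum) and the fraction of C, per the file headers. Per the submitters' processing notes Trim Galore, BSMAP 2.90, SAMtools 1.3.1 and methylKit were used, and settings are not given in the sources used here. The deposited fraction equalled C reads over C plus T reads (largest difference 0.0). The tables list no row below a depth of 10.

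Here percent methylation was recomputed from the counts. CpGs with 10 reads in all 15 libraries (851 in the unit, 168 in the spacer) were tested with edgeR 4.0.16 (quasi-likelihood test on methylated and unmethylated counts, all 15 libraries in 1 fit, R 4.3.3), Benjamini-Hochberg adjusted over all 851 and called below 0.05. CHG and CHH cytosines (1182) were tested likewise. Windows of 100 bases, tiled from the first base of each part of the unit, with 3 or more tested CpGs (81) were tested with limma 3.58.1 on the mean log2 ratio of counts with a pseudocount of 0.5. The local unconverted share is that of CHG and CHH reads within 100 bases in the same library. Reads are summed, so near a step in depth the deeper side sets most of this share and of what is removed. To remove it, that share of the reads was taken from the C reads of each CpG. The rest was divided by the converted share. Means over the spacer, border steps and correlations have no test. The edgeR test, and limma on single CpGs, were run on simulated data first, with noise drawn independently at each cytosine. The window test was not run on simulated data. Named CpGs are those of each comparison with the largest called rises and falls (up to 5 each, at most 2 per window, later libraries all on 1 side of the reference mean), or the 3 lowest p where none was called, and the 3 nearest each border on each side; the CpGs at 5456, 5561 to 5574, 5667, 6414, 6508 and 6582, the CHG and CHH cytosines at 5581, 5583, 6442 and 6581 and the stretches of high unconverted share were chosen after their values were seen. The spacer, its borders and these tests were chosen with earlier results of these data known. Same-numbered libraries of different groups did not deviate together (correlations of their deviations from −0.274 to 0.174 over 27 pairs, median −0.0159), so replicate numbers were not used as pairs.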

Additional observations from a re-analysis of the deposited data

Results flagged for a closer look

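Among 67 groups of values checked for a library far from the others (by the gap to the nearest other library over the range of the group), 2 stood out, where chance flags about 1 in 20. Replicate 3 of the first control set had a mean of 54.3% over the 10 CpGs of 5.8S at the border, where the other 5 controls had 58.6% to 61.0%. Replicate 2 of the first set had 80.6% in the window from 5628 to 5727, where the others had 84.5% to 86.1%. That library had a median of 153 reads per CpG there.

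The change from control differed between time points, by edgeR's test of day 7 against day 3, at 134 CpGs that were lower and 8 that were higher at day 7. It differed between day 14 and day 7 at 7 CpGs, all higher at day 14.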

How the results depend on the processing

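No call at day 3 arose under any alternative run. The falls at day 7 and day 14 kept their direction under all. Counts of lower CpGs at day 7, day 14 and day 7 against day 3 were 80, 87 and 83 of the 101 CpGs with 100 reads in all libraries (chosen after seeing the data), and 45, 45 and 45 of the 45 with under 10% unconverted nearby, where 0, 0 and 0 were higher, since none of the last window met that limit. With the replicate block, which the numbers do not warrant, 126 were lower and 12 higher at day 7, 150 and 12 at day 14, and 5 in place of 8 higher at day 7 against day 3. Against only the second control set 7 CpGs were higher at day 14. Apart from the limit of 10% unconverted, the share of the unit called in the alternative runs of this section is not given here. Their counts therefore do not set the spacer beside the unit.

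The 8 higher calls of day 7 against day 3 became 3 with the unconverted share removed, 4 when thinned, 3 with only these groups, 4 without replicate 3 of both later days, and 2 to 9 when 1 library was left out. For day 14 against day 7 the 7 higher calls became 19 with the unconverted share removed, 3 thinned, 0 with only these groups, 11 by limma, 0 without both replicates 3 and 0 to 13 leaving out 1 library. The 0 lower calls became 1 with the unconverted share removed, 3 without both replicates 3 and 0 to 1 leaving out 1 library.

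Of 6 windows of 200 bases, 5 were lower at day 7, at day 14 and at day 7 against day 3, and 0 higher at day 14 against day 7. Reads summed per window gave 0 higher at day 7 against day 3 and 0 at day 14 against day 7, and removal of the unconverted share gave 3 for the latter. Leaving out 1 library gave 0 to 1 higher at day 7 against day 3, and 0 to 2 higher and 0 to 1 lower at day 14 against day 7.

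Window differences between day 14 and day 7 (log2 ratio) that changed sign ranged, leaving out 1 library, from −0.22 to 0.36 (window from 5528), −0.43 to 0.16 (5628), −0.036 to 0.82 (5728), −0.27 to 0.19 (5928), −0.13 to 0.81 (6028) and −0.17 to 0.044 (5.8S). With the unconverted share removed they were 0.42 (5628) and 0.014 (5.8S).

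Unconverted cytosines called lower at day 7 were 0 at 30 reads, 0 for CHG, and 0 to 1 leaving out 1 library. Called higher were 42 for CHG at day 7, 41 for CHG and 81 for CHH at day 14, and 65 to 126 leaving out 1 library. As a mean over cytosines, for CHG and for CHH the unconverted share was 8.04%, 9.83% and 3.41% in controls, 9.01%, 10.1% and 3.85% at day 3 and 18.2%, 23.1% and 12.1% at day 14, and for CHG 26.3% at day 7.

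The spacer mean differed from control by 2.47 (day 3), −7.42 (day 7) and −8.19 points (day 14) with reads summed, and at day 7 by −18.8 at 30 reads and −29.4 with the unconverted share removed. With 5 CpGs a side the 18S step was 3.76 in controls, 4.56 at day 3, −13.6 at day 7 and −13.6 at day 14, and the 5.8S step −4.99, −4.71, −4.22 and −3.94. With the unconverted share removed the 18S step was 20.7 at day 3 and −4.73 at day 7. Leaving out 1 library it ran from −1.42 to 0.73 at day 7 and −2.16 to 2.71 at day 14. The cause of these changes was not tested, apart from fewer sites or windows under a stricter limit. Without 1 library the day 14 step at 5.8S ran from 2.03 to 5.66. Depth kept 12 CpGs out of the tests, 9 of them from 6270 to 6297.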

Other observations

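One CHH cytosine of the spacer, at 6442, had fewer unconverted reads at day 7 than in controls, 0.0% in all 3 libraries against 0.652% to 3.59% (edgeR adjusted p = 0.0272), on as few as 18 reads. The CpG at 6582 was the highest of the last window, at 93.1% ± 2.16 in controls and 96.8% ± 0.518 at day 7. The share of spacer reads that were neither C nor T at a cytosine was 0.382% to 0.993%.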
